A study of Mus musculus with 21 samples.

Results

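The immediate early genes *Fos*, *Fosb*, *Jun*, *Junb*, *Jund*, *Egr1*, *Egr3*, *Ier2*, *Arc* and *Npas4* were followed through the mouse cochlear transcriptomes of spiral ganglion neurons (SGNs), hair cells (HCs) and glial cells. These 10 genes were taken by name, as genes that neuronal activity and tissue dissociation both induce, from 52550 genes in the count table, and all 10 passed the filters on low counts. SGNs, the neurons that carry sound signals from HCs to the brain, were collected before birth (E15.5) and on the postnatal days P1, P8, P14 and finally P30. Glial cells were taken at P8 and HCs at P12, and each of the 7 groups had 3 libraries. SGNs came from *Shh*Cre/+ mice carrying the *Rosa26*-CAG-loxp-stop-loxp-tdTomato reporter, HCs from *Atoh1*-CreER+ mice and glial cells from *vGlut3*-iCreER/+ mice with the same reporter, and the last 2 lines were given tamoxifen after birth. The labels give the strain as C57BL/6. Each library therefore holds the tdTomato-positive cells that its Cre driver marked. SGN and glial libraries held 69 to 195 hand-picked cells from the cochlea, whereas each HC library held about 1200 cells from cochlear and vestibular organs together. For HCs the labels describe manual sorting and the study's methods describe FACS, so that in every comparison with HCs the way of isolation may differ along with the cell type and cannot be told apart from it. The tissue was digested with pronase at room temperature for 30 to 45 min before the cells were collected. For SGNs, the study gives several hours in all from death of the mice to lysis buffer, longer than this digestion. No library was made without dissociation, so induction in the ear and induction during cell isolation cannot be told apart. Nothing states whether the 3 libraries of a group came from separate animals, and p-values therefore measure only the spread between these libraries.

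Immediate early genes are transcribed within minutes of a stimulus without new protein synthesis. In neurons, calcium entry and growth factors reach their promoters through kinases that act on serum response factor with its Elk partners and on CREB. Many of the products are transcription factors, among them the Fos and Jun proteins that pair as AP-1, and the same genes respond to mechanical and enzymatic stress when a tissue is taken apart.

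Sequence upstream of the transcription start was available from RefSeq (GRCm38.p6) for 6 members, *Fos*, *Fosb*, *Jun*, *Junb*, *Jund* and *Npas4*, as 250 bases each. The 4 windows printed here are those that hold TGACG, the shorter form of the CREB recognition sequence TGACGTCA, on either strand (CGTCA on the other strand). They show *Fos*, *Fosb* and *Junb*, whose levels moved together from library to library, beside *Npas4*, whose levels did not follow them. Capitals mark TGACG or CGTCA and, in *Fosb*, also GCGGGGGCG, an instance of the Egr recognition sequence GCGNGGGCG. Each is given 5′ to 3′ on the strand of its gene.
Fos, chr12:85473640-85473889, plus strand: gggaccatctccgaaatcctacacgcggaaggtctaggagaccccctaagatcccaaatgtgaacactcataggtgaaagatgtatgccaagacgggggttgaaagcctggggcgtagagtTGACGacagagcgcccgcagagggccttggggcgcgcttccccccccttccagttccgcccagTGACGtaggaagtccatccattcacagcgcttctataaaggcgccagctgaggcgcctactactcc
Fosb, chr7:19310046-19310295, minus strand: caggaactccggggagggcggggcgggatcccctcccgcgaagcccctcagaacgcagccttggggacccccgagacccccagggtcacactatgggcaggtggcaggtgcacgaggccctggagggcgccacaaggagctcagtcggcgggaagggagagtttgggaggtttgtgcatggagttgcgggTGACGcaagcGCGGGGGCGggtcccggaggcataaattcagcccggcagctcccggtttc
Junb, chr8:84978749-84978998, minus strand: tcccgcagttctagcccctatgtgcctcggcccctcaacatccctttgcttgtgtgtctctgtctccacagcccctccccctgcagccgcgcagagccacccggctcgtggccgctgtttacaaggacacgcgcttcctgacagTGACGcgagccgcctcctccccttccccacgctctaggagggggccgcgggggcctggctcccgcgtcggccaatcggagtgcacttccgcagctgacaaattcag
Npas4, chr19:4989972-4990221, minus strand: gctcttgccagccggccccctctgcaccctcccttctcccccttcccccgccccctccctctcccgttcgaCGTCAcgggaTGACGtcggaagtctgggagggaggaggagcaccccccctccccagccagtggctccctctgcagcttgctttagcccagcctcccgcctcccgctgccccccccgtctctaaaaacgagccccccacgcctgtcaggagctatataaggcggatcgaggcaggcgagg
*Fos* holds TGACG at 66 and at 129 bases before its start, *Fosb* at 60, *Junb* at 106, and *Npas4* at 169 and, as CGTCA, at 179. TGACG occurred in 17.8% of 32851 promoter windows of the same length, and it was chosen after the longer motifs had been searched in these members. The *Npas4* window ends at the RefSeq start and lies wholly inside the longer *Npas4* gene of GENCODE M21 whose coordinates are given below, so its distances hold for the RefSeq start alone. The *Jund* window (chr8:70697489-70697738, plus strand) ends well before the GENCODE M21 *Jund* gene begins at 70698949. Its lack of matches therefore also holds for the RefSeq start alone. Among the 6 members, none of the windows held the whole TGACGTCA (1.55% of all windows), the AP-1 sequence TGANTCA (6.75%) or the CArG box bound by serum response factor (1.47%). None held CACGTGA either (3.13%). GCGNGGGCG, found in *Fosb* alone, occurred in 4.70% of all windows. These letters are matches only, both strands were searched, and TGACG is contained in TGACGTCA. Sequence farther than 250 bases from the start, and variants of these motifs, were not searched. A motif absent here may therefore lie elsewhere in the promoter.

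The libraries held 10368240 to 37287489 counts (median, 20384100), so that 3 counts, the upper limit that a count of 0 allows, correspond to 0.0805 to 0.289 CPM (counts scaled to the size of the library). Reads carried no molecular identifiers, so this limit covers counting error only. Levels are given below as TPM, which scale counts by gene length and library size and can be compared between genes. Differences between groups were tested on another scale, log2 CPM scaled by the trimmed mean of M-values (TMM). The labelled cell types showed their markers, since 7 SGN markers summed to 656 to 4902 TPM in SGNs, 6 HC markers to 4566 to 5599 TPM in HCs and 6 glial markers to 5693 to 8077 TPM in glial cells. Markers of the other types were present at lower sums, with HC markers at 29.9 to 696 TPM and glial markers at 5.04 to 993 TPM in the SGN libraries. In bulk libraries, fewer cells expressing a gene and less RNA per cell cannot be told apart.

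*Fos*, *Fosb*, *Jun* and *Egr1* were among the most abundant messages of glial cells and HCs, and *Egr3* was so in glial cells, whereas *Arc* and *Npas4* were not. The 10 genes summed to 1920 to 2201 TPM in the glial libraries, to 2039 to 2235 TPM in the HC libraries and to 33.6 to 967 TPM in the 15 SGN libraries. Ranked by mean TPM over all 52550 genes, *Fos* was the 26th and *Fosb* the 31st gene of glial cells and *Egr1* the 36th, and *Egr1* was the 49th gene of HCs. *Jun* and *Egr3* ranked 121 and 119 in glial cells, and *Fos*, *Fosb* and *Jun* ranked 93, 133 and 156 in HCs. At the other end *Arc* ranked 6263 in glial cells and 11737 in HCs, *Npas4* 21141 and 23228, and in HCs *Egr3* ranked 11807 and *Jund* 5491.

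**Figure D1:**
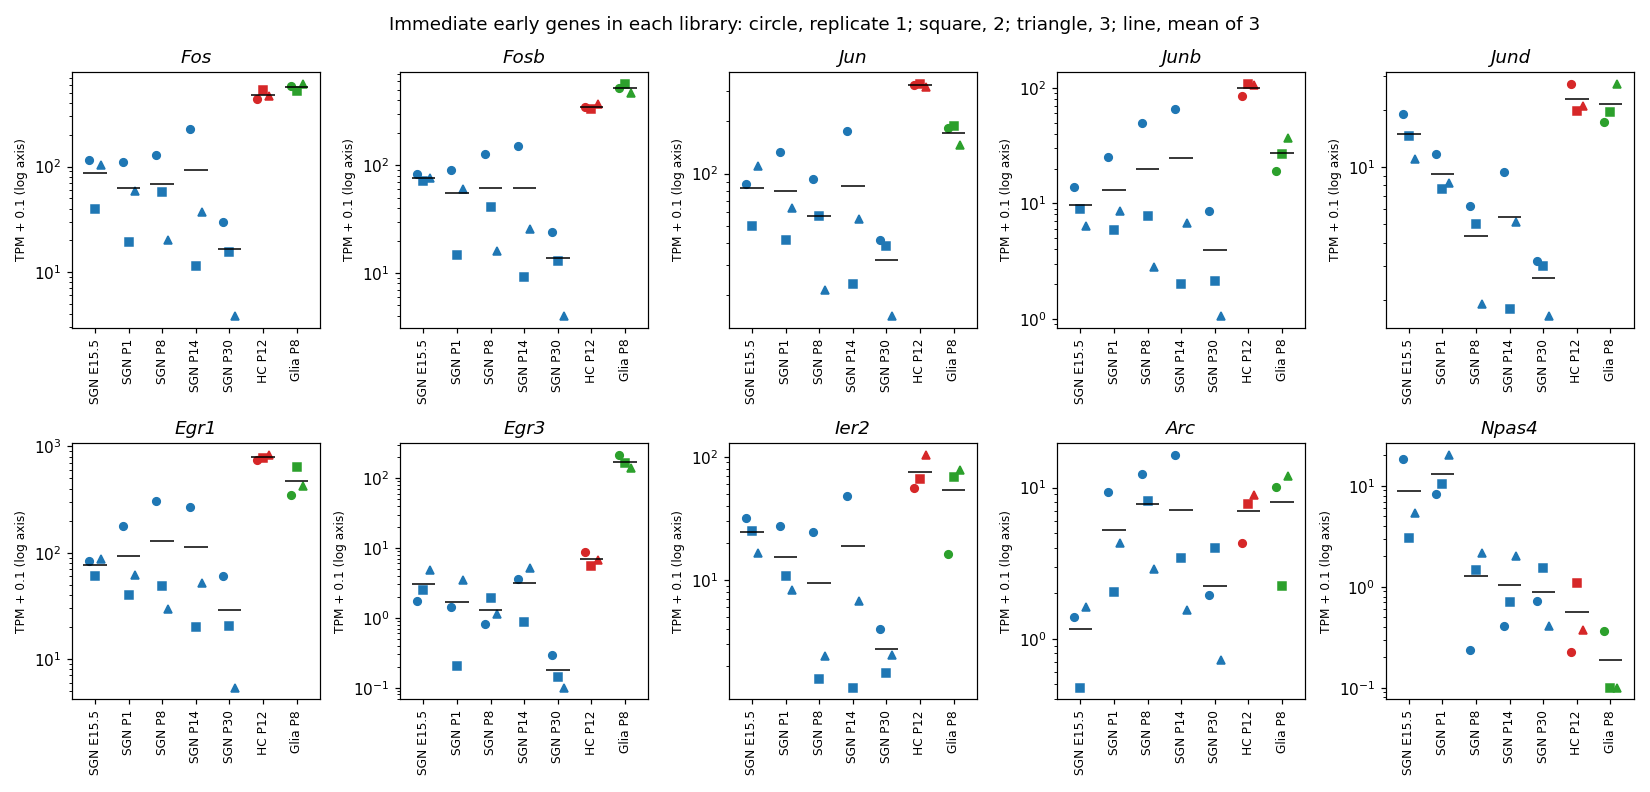
TPM plus 0.1 of each member (log axis) in every library of the 5 SGN ages (blue), HCs at P12 (red) and glial cells at P8 (green); circle, square and triangle are replicates 1, 2 and 3, and the line is the mean of 3. The SGN circles stand above the other SGN symbols at P1, P8, P14 and P30 in most panels. The HC symbols of *Fos*, *Fosb*, *Jun* and *Egr1*, and those of glial cells for *Fos*, *Fosb* and *Jun*, lie close together, whereas the HC symbols of *Npas4* are spread.

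*Fos* (chromosome 12, 85473890 to 85477273, plus strand; GENCODE M21, GRCm38) encodes the Fos subunit of AP-1. In replicates 1, 2 and 3 it stood at 116, 39.4 and 103 TPM at E15.5, 112, 19.0 and 58.9 at P1, 129, 57.1 and 20.04 at P8, 227, 11.3 and 37.0 at P14 and 29.9, 15.3 and 3.67 at P30. HC libraries had 442, 535 and 473 TPM and glial libraries 586, 525 and 616 TPM. Every HC and every glial library was above every SGN library, and the ranges of HCs and glial cells overlapped each other. Between neighbouring SGN ages all ranges overlapped, and the P14 mean of 91.9 ± 118 (SD, n = 3) rested on a single high library.

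*Fosb* (chromosome 7, 19302696 to 19310051, minus strand), whose product is another partner of Jun proteins, had the same order of cell types, and its highest SGN mean was at E15.5 and not at P14. Its 3 libraries had 82.6, 71.8 and 75.6 TPM at E15.5, 90.6, 14.6 and 60.7 at P1, 126, 41.1 and 16.0 at P8, 149.7, 9.16 and 25.7 at P14 and 23.9, 12.9 and 3.86 at P30. It had 346, 336 and 368 TPM in HCs and 522, 573 and 473 TPM in glial cells. E15.5 was the one SGN age with 3 close values, and glial cells were above HCs in every library.

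The 3 Jun genes encode the other subunit of AP-1, and their exons overlap other genes, *Junos* antisense to *Jun*, *Prdx2* opposite *Junb* and *Gm11175* antisense to *Jund*. The counting is not stated to use strand, so their levels are uncertain to that extent. *Jun* (chromosome 4, 95049034 to 95052222, minus strand) averaged 31.6 ± 14.5 TPM at P30 to 84.5 ± 80.1 TPM at P14 in SGNs, 322 ± 6.69 TPM in HCs and 172 ± 22.7 TPM in glial cells (SD, n = 3). *Junb* (chromosome 8, 84974484 to 84978718, minus strand) was at 24.9, 5.75 and 8.47 TPM at P1, 49.2, 7.60 and 2.74 at P8 and 65.7, 1.90 and 6.63 at P14. It reached 84.1, 109 and 105 TPM in HCs against 19.0, 26.7 and 36.4 TPM in glial cells, the one AP-1 member whose glial libraries lay within the SGN range. *Jund* (chromosome 8, 70698949 to 70700616, plus strand) was less variable and lower, with 18.9, 14.4 and 10.97 TPM at E15.5, 11.6, 7.59 and 8.17 at P1, 6.10, 4.89 and 1.79 at P8, 9.34, 1.70 and 5.04 at P14 and 3.10, 2.91 and 1.54 at P30. HCs had 27.4, 19.6 and 20.9 TPM and glial cells 17.2, 19.3 and 27.4 TPM of *Jund*.

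*Egr1* (chromosome 18, 34859823 to 34864984, plus strand) and *Egr3* (chromosome 14, 70077203 to 70082614, plus strand) encode zinc finger transcription factors. *Egr1* was at 83.1, 60.7 and 87.3 TPM at E15.5, 177, 39.9 and 61.8 at P1, 309, 48.7 and 29.4 at P8, 271, 19.8 and 51.7 at P14 and 60.9, 20.5 and 5.27 at P30. In HCs it was at 751, 777 and 833 TPM and in glial cells at 352, 637 and 419.8 TPM, all above the SGN libraries, and HCs were above glial cells. *Egr3* was high in the glial libraries, with 215, 162 and 138 TPM, against 8.53, 5.43 and 6.57 TPM in HCs and 0 to 5.02 TPM in SGNs. At P30 the 3 SGN libraries held 22, 2 and 0 counts of *Egr3*, so 2 of them were at or below the level that a count of 0 allows.

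*Ier2* (chromosome 8, 84661331 to 84662852, minus strand), a growth factor-induced nuclear protein, was at 31.9, 25.0 and 16.4 TPM at E15.5, 27.2, 10.7 and 8.18 at P1, 24.4, 1.46 and 2.33 at P8, 48.1, 1.24 and 6.63 at P14 and 3.91, 1.66 and 2.37 at P30. HCs had 55.8, 65.6 and 104 TPM. In glial cells 1 library stood apart, with 16.2 TPM against 67.9 and 77.5.

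*Arc* and *Npas4*, the 2 members most closely tied to neuronal activity, did not share the pattern of high glial cells and HCs. *Arc* (chromosome 15, 74669083 to 74672570, minus strand), whose product acts at synapses, averaged 1.06 ± 0.604 TPM at E15.5, 5.12 ± 3.75 at P1 and 7.68 ± 4.74 at P8 in SGNs, then 7.04 ± 8.14 at P14 and 2.13 ± 1.66 at P30 (SD, n = 3). HCs had 6.93 ± 2.41 TPM and glial cells 7.97 ± 5.14 TPM of *Arc*, inside the range of the SGN libraries. *Npas4* (chromosome 19, 4984355 to 4990316, minus strand), a neuronal transcription factor that answers to calcium entry, was at 18.5, 2.97 and 5.23 TPM at E15.5 and 8.20, 10.4 and 20.2 TPM at P1. It was then at 0.138, 1.36 and 2.08 TPM at P8, 0.311, 0.601 and 1.93 at P14 and 0.622, 1.43 and 0.304 at P30. HC libraries held 2, 21 and 6 counts of *Npas4* and glial libraries 14, 0 and 0, where a count of 0 allows up to 0.251 and 0.289 CPM. All 6 libraries of E15.5 and P1 were above all 15 other libraries for *Npas4*.

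Replicate 1 stood above the other libraries of its SGN age for most members after birth. At each of P1, P8, P14 and P30, replicate 1 had the highest level of 8 of the 10 members, both in TPM and on the TMM scale, whereas replicate 1 was the highest library for 35.4%, 35.8%, 32.3% and 34.9% of all 17531 genes on the TMM scale, and for 22.6%, 20.1%, 49.1% and 24.4% in TPM. The exceptions were *Npas4* at all 4 ages, *Egr3* at P1, P8 and P14, and *Arc* at P30. The median member of replicate 1 was above the mean of the other 2 libraries by 2.26 at P14, by 1.81 at P8, by 1.76 at P1 and by 1.40 at P30 (log2 TMM-scaled CPM). It was above by 0.35 at E15.5, where replicate 1 was the highest library for 2 members on the TMM scale (33.3% of all genes) but for 6 in TPM (34.1%). The largest deviation of a member was at times in another library, as for *Egr3* in replicate 2 of P1 (-2.60) and *Arc* in replicate 3 of P14 (-2.01, log2). The ratio in TPM reached 15.4 for *Junb*, 9.42 for *Fos* and 7.58 for *Egr1* at P14, and 12.9 for *Ier2* at P8. *Npas4* went the other way at P8, with 0.081 times the mean of the other 2 libraries in replicate 1.

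**Figure D2:**
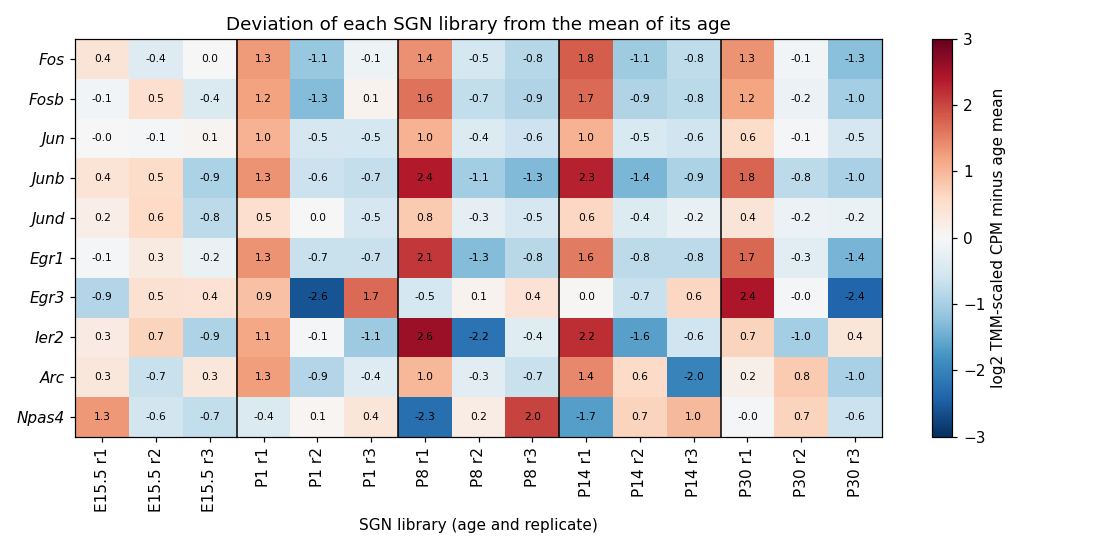
Difference of each SGN library (columns, age and replicate) from the mean of its age in log2 TMM-scaled CPM for each member (rows); red is above and blue below that mean. Replicate 1 of P1, P8, P14 and P30 is red for *Fos*, *Fosb*, *Jun*, *Junb*, *Jund*, *Egr1* and *Ier2*, whereas *Npas4* is blue or near 0 there.

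The same libraries differed from their companions in other respects. Over all genes, deviations of replicate 1 from the age means had r of 0.249 to 0.378 between P1, P8, P14 and P30. Replicate 1 held the most cells of its age at P1, P8, P14 and P30 (195, 140, 127 and 114, against 89 to 150 in the others) and the most counts, whereas at E15.5 it held the fewest of both. Summed connective tissue markers were at 141, 151, 70.2 and 20.97 TPM in replicate 1 of P1, P8, P14 and P30, against 0.15 to 32.6 TPM in the other 8 libraries of these ages, and none of the 5 markers was at 0 in replicate 1 of those ages. Endothelial markers were at 73.4, 10.9, 5.06 and 1.5 TPM in those libraries and at 0 to 0.32 TPM in the other 8. At P14, *Cdh5* gave 4.99 of the 5.06 TPM in replicate 1, where 2 of the 4 endothelial markers were at 0. Blood markers were highest in replicate 1 at E15.5 (182 TPM against 0.70 and 3.20), P1 (34.5 against 0.64 and 1.28), P8 (30.8 against 1.79 and 0.52) and P30 (18.5 against 1.98 and 2.41), but not at P14 (2.68 against 0.64 and 5.70). Macrophage markers did not exceed 2.73 TPM in any SGN library, with 1 to 5 of the 6 markers at 0. HC markers were highest in replicate 1 at P8 (413 TPM against 370.0 and 208), P14 (696 against 71.1 and 70.5) and P30 (332 against 100.1 and 70.9), and lowest in it at P1 (431 against 483 and 468). Glial markers were highest in replicate 1 at P14 (496 TPM against 136 and 172) and P30 (86.3 against 37.9 and 5.04), between the others at P8 (818 against 993 and 490.4) and lowest at P1 (34.2 against 121.6 and 93.1). The sum of 8 heat shock genes, to which *Hspa8* and *Hsp90aa1* gave the most (876 and 311 TPM on average at P8), was 1225 TPM in replicate 1 of P1 against 1228 and 1624, 1166 at P8 against 2150 and 812, 2377 at P14 against 898 and 2672, and 1581 at P30 against 2067 and 1183. The inducible *Hspa1a* and *Hspa1b* were at 1.13 ± 1.28 and 1.52 ± 1.25 TPM at P8 (SD, n = 3). The part of these differences in the member levels was not tested.

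The median member was less repeatable than the median gene in SGNs and more repeatable than it in HCs and glial cells. The standard deviation between libraries of one age, pooled over the 5 SGN ages on the log2 scale, was 1.26 for the median member and 0.651 for the median gene. It ranged from 0.575 for *Jund* to 1.59 for *Junb*. Among the ages, E15.5 was the exception, with 0.648 for the median member and 0.729 for the median gene, and *Jun* had 0.081 there. In HCs the median member had 0.230 and the median gene 0.327, and 1.25% of genes varied less than *Egr1* at 0.030. In glial cells the values were 0.442 and 1.13, with *Fos* at 0.133 and *Npas4*, near its detection limit, at 2.33. Some members varied more than the median gene in these cells. In HCs they were *Npas4* with 1.35, *Arc* with 0.494, *Ier2* with 0.402 and *Egr3* with 0.381. In glial cells they were *Npas4*, *Arc* with 1.34 and *Ier2* with 1.315. The filter on low counts asked for 1 group only, so genes can be near 0 in another. Members were not compared with genes of like abundance.

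Across the 15 SGN libraries, *Fos*, *Fosb*, *Jun*, *Junb*, *Egr1* and *Ier2* moved together. Pearson's r between their deviations from the age means was 0.731 to 0.952 (median, 0.925) over the 15 pairs. With these same genes *Jund* had r of 0.694 to 0.897 and *Arc* of 0.517 to 0.839, and no cutoff on r set those 2 apart. *Npas4* had r of -0.574 to -0.051 with the other 9 members and *Egr3* of -0.136 to 0.309. These values describe the libraries, which share depth, cell number and composition, and carry no test. By the same measure on log2(CPM + 1) levels over the 15 libraries, and with the 10 members themselves left out, the genes most like *Fos* were *Lima1* (r = 0.973), *Dusp6* (0.949) and *Ucp2* (0.936), and *Ucp2* was also among the 3 closest genes of *Fosb*, *Jun* and *Ier2*. Between members r reached 0.970 for *Fos* with *Fosb* and 0.956 for *Egr1* with *Junb*. Among the other genes *Egr1* was closest to *Nr4a1* (0.944), another immediate early gene that encodes a nuclear receptor, and *Fosb* to *Klf4* (0.948). *Npas4* was closest to *Mtcl1* (0.955), *Ier2* to *Ppp1r15a* (0.938), *Junb* to *Epcam* (0.964), an epithelial adhesion molecule, *Arc* to *Sgk1* (0.830) and *Egr3* to *Snap23* (0.858). *Jun* was closest to *Igfbp4* (0.962), and *Jund* to *Nfya* (0.966) with *Nr4a3* (0.957) in the third place.

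Over SGN development, 3 members changed with age in a moderated F-test across the 5 ages, *Npas4* (adjusted p = 0.00289), *Jund* (adjusted p = 0.0180) and *Egr3* (adjusted p = 0.0226, limma-voom with Benjamini-Hochberg adjustment over 15113 genes). The same test called 37.8% of all genes. The remaining members had adjusted p of 0.168 (*Fosb*) to 0.805 (*Junb*). *Egr3* missed the threshold without replicate 2 or replicate 3 of P30 and *Jund* without replicate 2 of E15.5. With the first replicates of P1, P8, P14 and P30 left out, a choice made after their values were seen, 7 members passed, *Fos*, *Fosb*, *Jun*, *Jund*, *Egr1*, *Npas4* and *Ier2*, among 4495 of 15829 genes called, whereas *Egr3* did not (adjusted p = 0.05995). Most members were highest in those libraries, so leaving them out lowers most member means at these ages and narrows their spread. Calls gained that way are therefore no support for a change, here and below.

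Between neighbouring ages 1 member passed the threshold of adjusted p under 0.05 and a difference over 2-fold. *Npas4* fell from P1 to P8 by 3.65 on the log2 scale (standard error 0.85, adjusted p = 0.0107), a 12.5-fold difference, and in TPM its P1 libraries were all above its P8 libraries, as were those of *Jund* and of 15.7% of all genes. The same rule called 7.44% of all genes from P1 to P8, and 3.15% as lower. The *Npas4* difference did not pass by edgeR's quasi-likelihood test (-2.77), nor with the first replicates of the 4 ages left out (-2.72). Glial markers rose over the same step in 4 of 6 genes, to 490.4 to 993 TPM at P8, while *Npas4* itself was at 0.0878 TPM on average in glial cells. From E15.5 to P1 no member passed, against 8.26% of all genes. Of the 10 members 2 had an unadjusted p under 0.05 there by limma, by edgeR and by DESeq2. How many of all genes did so was not computed, so this count has no background. The median member was lower at P1 by -0.82 (log2), the largest differences being *Egr3* at -2.29 ± 0.84 and *Arc* at 1.86 ± 1.11 (standard error). Without replicate 3 of E15.5, *Jund* passed, among 956 of 15598 genes called. With the 4 first replicates left out, after their high values were seen, *Fos*, *Fosb*, *Jun* and *Egr1* passed, among 1030 of 15829 genes called.

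From P8 to P14 no member passed, against 0.536% of all genes, and none had an unadjusted p under 0.05 by any of limma, edgeR and DESeq2. From P14 to P30 again none passed, against 0.0596% of all genes, with 1 member at an unadjusted p under 0.05 by limma, 2 by edgeR and 1 by DESeq2, and 3 by limma with sample quality weights or without the first replicates of the 4 ages. The share of all genes at that unadjusted p was not computed for either step. The differences from P14 to P30 were nevertheless below 0 for 9 members, with a median of -1.27, and *Egr3* had the largest at -5.47 ± 1.49 (adjusted p = 0.268). That *Egr3* value rests on P30 libraries with 22, 2 and 0 counts and depends on how the fit treats counts near 0. DESeq2 and limma with sample quality weights called *Egr3* in this step, among 97 and 110 of 15113 genes.

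**Figure D3:**
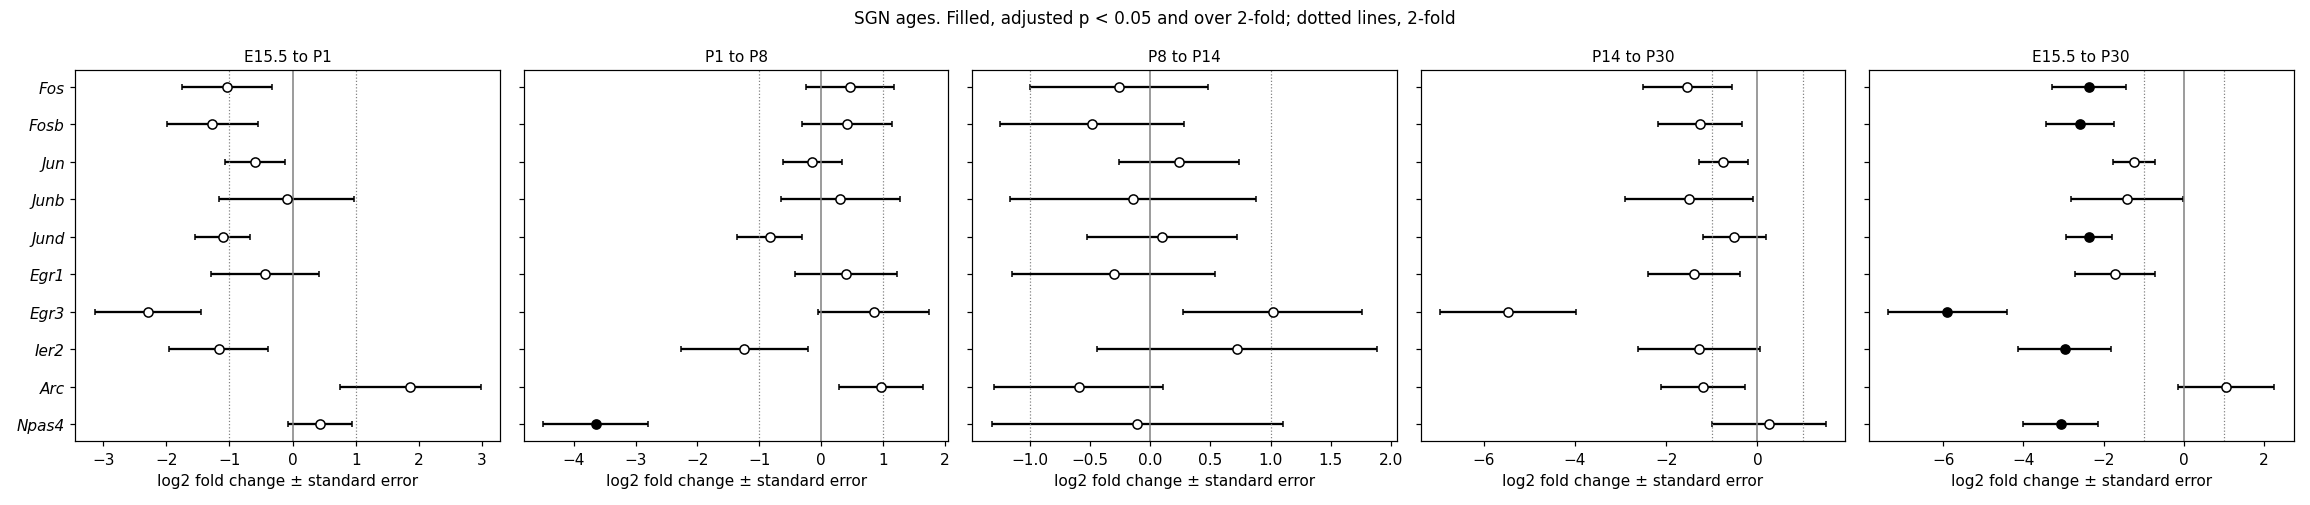
Log2 fold change of each member between SGN ages (x axis), with standard errors as bars; filled points passed adjusted p < 0.05 and a 2-fold difference, and dotted lines mark 2-fold. One point is filled between neighbouring ages (*Npas4*, P1 to P8), and 6 are filled from E15.5 to P30, all below 0.

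From E15.5 to P30, 6 of the 10 members fell, *Egr3*, *Npas4*, *Ier2*, *Fosb*, *Fos* and *Jund*, and none rose. The rule called 34.6% of all genes, 16.2% as lower at P30. *Jund* fell by 2.35 (standard error 0.58, adjusted p = 0.00397), *Egr3* by 5.90 (standard error 1.48, adjusted p = 0.00461) and *Npas4* by 3.08 (standard error 0.94, adjusted p = 0.0153) on the log2 scale. *Fosb* fell by 2.58 (standard error 0.86, adjusted p = 0.0238), *Fos* by 2.36 (standard error 0.92, adjusted p = 0.0489) and *Ier2* by 2.97 (standard error 1.16, adjusted p = 0.05 after rounding, just inside the threshold). *Jun* at -1.24 ± 0.52 (adjusted p = 0.0649), *Egr1* at -1.72 ± 0.99, *Junb* at -1.42 ± 1.40 and *Arc* at 1.05 ± 1.21 did not pass. The median member was at -2.36, where the median of all genes was at -0.01. In TPM every E15.5 library was above every P30 library for 7 members, *Jun* and the 6 that were called, and for 17.8% of all genes.

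The size of this group depended on single libraries. Without replicate 2 of E15.5 the called members were *Jund*, *Egr3* and *Npas4*, without replicate 1 of P30 they were *Fosb*, *Jund* and *Egr3*, without replicate 2 of P30 *Jund*, *Egr3* and *Npas4*, and without replicate 3 of P30 *Jund* and *Egr3*. *Fos* lost its call when any of the 6 libraries compared was left out, *Ier2* when any but replicate 3 of E15.5 was, and *Npas4* without replicate 1 or replicate 3 of P30. *Jund* and *Egr3* passed in all of these. With the 4 first replicates left out, after their high values were seen, all members but *Arc* passed, among 4581 of 15829 genes called. Leaving out replicate 1 of P30 lowers the P30 mean of most members by itself, so these calls add no support. Glial markers moved in the same direction (59.7 to 161.5 TPM at E15.5, 5.04 to 86.3 at P30, 2 of 6 called lower), as did connective tissue markers (8.35 to 28.4 TPM against 0.15 to 20.97, none of 5 called). HC markers moved the other way (29.9 to 162 TPM at E15.5, 70.9 to 332 at P30, 2 of 6 called higher), and the share of counts on mitochondrial genes was 9.57 to 13.5% at E15.5 and 17.9 to 22.1% at P30. Their part in the result was not tested.

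Of 27 tested genes in a list of 28 other early response genes, 9 were lower at P30, 1 was higher and 17 did not pass, where 34.6% of all genes were called and 16.2% were lower. The lower ones were *Nr4a2* (-4.13, a nuclear receptor), *Sik1* (-3.50), *Ier5* (-3.24), *Nr4a3* (-2.34), *Maff* (-2.28), *Klf6* (-1.996), *Myc* (-1.998), *Trib1* (-1.63) and *Per1* (-1.52). *Nptx2*, which encodes a secreted synaptic pentraxin, rose by 5.78 (log2). *Nr4a1* and *Egr2*, the genes of this list with the highest mean TPM over all 21 libraries, did not pass (*Nr4a1* -3.64 ± 1.52, adjusted p = 0.0639; *Egr2* -0.75 ± 0.99). Of the 8 heat shock genes *Hsph1* (1.99) and *Hsp90aa1* (1.97) were higher at P30 and none was lower.

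Against HCs, 4 members differed in SGNs under the stricter rule used between cell types (adjusted p under 0.01 and over 4-fold, 21 libraries, 17531 genes), which called 26.8% of all genes, 16.2% as lower and 10.5% as higher in SGNs. *Egr1* was lower in SGNs by -2.43 ± 0.44 (adjusted p = 8.24e-05), *Junb* by -2.33 ± 0.53 (adjusted p = 9.58e-04) and *Fos* by -2.19 ± 0.39 (adjusted p = 6.88e-05), whereas *Npas4* was higher by 3.65 ± 1.08 (adjusted p = 0.00746; log2 ± standard error, mean of the 5 ages). That mean includes E15.5 and P1, the SGN ages with the highest *Npas4*. In TPM, its SGN libraries of P8, P14 and P30 (0.138 to 2.08) overlapped those of HCs (0.123 to 1.00). *Fosb* (-1.96 ± 0.40, adjusted p = 2.91e-04) and *Jun* (-1.22 ± 0.29, adjusted p = 0.00124) passed on p but fell short of the 4-fold limit. *Ier2* (-1.92 ± 0.63, adjusted p = 0.0138) and *Egr3* (-1.86 ± 0.60, adjusted p = 0.0129) passed neither on fold nor on p. The same held for *Jund* (-0.68 ± 0.39, adjusted p = 0.149) and *Arc* (0.07 ± 0.72, adjusted p = 0.940). The median member was at -1.89, against 0.02 for all genes.

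The TPM values separated these cell types more sharply than the TMM scale did. Every HC library was above every SGN library in 8 members, all but *Arc* and *Npas4*, but the same held for 33.0% of all genes. The HC libraries had 19046 to 19874 genes above 1 TPM and the SGN libraries 11763 to 17470. Of the 4 calls, edgeR's quasi-likelihood test kept *Egr1* alone and DESeq2 lost *Junb*. *Npas4* also lost its call with RLE size factors, with scaling by library size only, without a low-count filter and with only the libraries compared (adjusted p of 0.0114 to 0.0192). Without the first replicates of P1, P8, P14 and P30, 7 members were called, among 4670 of 17941 genes. *Fosb*, *Egr3* and *Ier2* joined the 4. Those libraries were left out after their high values were seen, which by itself widens the difference from HCs for most members. The *Npas4* call was lost without any single HC library and without replicate 2 of P1, P8, P14 or P30, replicate 3 of P14, replicate 1 of P30, or replicate 2 or 3 of the glial cells that share the fit, and its HC libraries held 2, 21 and 6 counts. Macrophage markers were at 17.3 to 40.6 TPM and connective tissue markers at 83.5 to 91.7 TPM in HCs, against at most 2.73 and 151 TPM in SGNs, and their part was not tested. In the HC libraries 1 to 5 of the 6 macrophage markers were at 0.

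**Figure D4:**
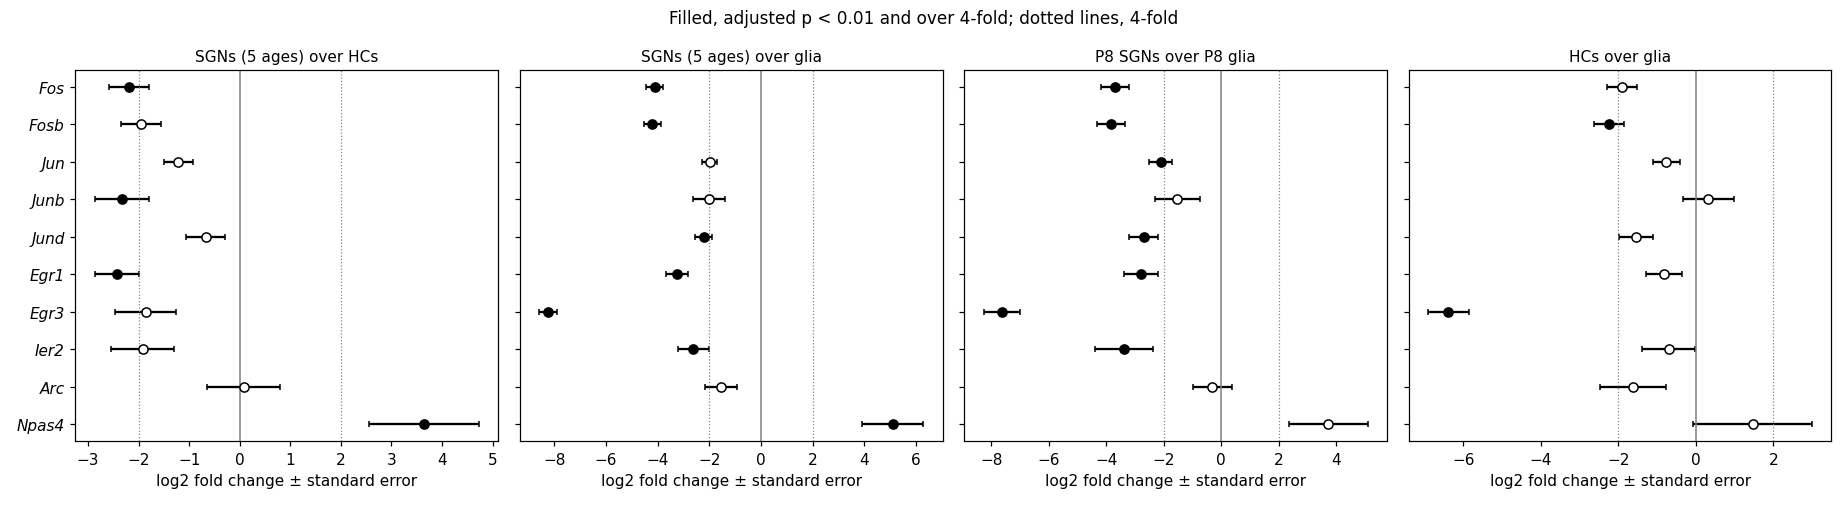
Log2 fold change of each member between cell types (x axis), with standard errors as bars; filled points passed adjusted p < 0.01 and a 4-fold difference, and dotted lines mark 4-fold. *Egr3* lies farthest to the left in the 3 panels with glial cells, and *Npas4* is the one filled point on the right, against HCs and against glial cells.

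The contrast with glial cells was larger. Of the 10 members, 6 were lower and 1 was higher in SGNs than in glial cells, while 24.7% of all genes were called, 10.4% as lower and 14.3% as higher. *Egr3* differed by -8.24 ± 0.35 (adjusted p = 8.44e-14), 302-fold lower in SGNs. *Fosb* followed with -4.20 ± 0.32 (adjusted p = 9.90e-10), *Fos* with -4.10 ± 0.33 (adjusted p = 2.24e-09), *Egr1* with -3.25 ± 0.43 (adjusted p = 2.53e-06), *Ier2* with -2.62 ± 0.60 (adjusted p = 0.00110) and *Jund* with -2.21 ± 0.33 (adjusted p = 1.24e-05). *Npas4* was higher in SGNs by 5.11 ± 1.18 (adjusted p = 0.00119), a value that rests on 14, 0 and 0 counts in glial cells and on the high SGN libraries of E15.5 and P1. *Junb* (-2.001 ± 0.61, adjusted p = 0.0103) and *Jun* (-1.98 ± 0.28, adjusted p = 7.99e-06) missed the rule narrowly, and *Arc* was at -1.54 ± 0.61. The median member was at -2.41 and the median of all genes at 0.22. In TPM every glial library was above every SGN library for *Fos*, *Fosb*, *Egr1* and *Egr3*, which held for 4.91% of all genes. *Npas4* lost its call without replicate 2 or replicate 3 of glial cells (4.37 and 4.45), as did *Ier2* (-2.22 and -2.17), and *Jund* without replicate 3 (-1.99).

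At the one age with both cell types, P8, 7 members were lower in SGNs than in glial cells, against 20.9% of all genes called and 7.53% called lower. These were *Egr3* (-7.65 ± 0.63), *Fosb* (-3.84 ± 0.48), *Fos* (-3.71 ± 0.48), *Ier2* (-3.38 ± 1.00), *Egr1* (-2.78 ± 0.59), *Jund* (-2.70 ± 0.49) and *Jun* (-2.11 ± 0.39), with adjusted p of 1.57e-08 for *Egr3* to 0.00976 for *Ier2*. *Npas4* at 3.73 ± 1.38 (adjusted p = 0.0335), *Junb* at -1.53 ± 0.79 and *Arc* at -0.30 ± 0.68 did not pass. Without replicate 2 of P8 SGNs, 4 members passed, *Fos*, *Fosb*, *Jund* and *Egr3*. *Jun* was also lost without replicate 3 of P8 SGNs, and *Ier2* without that library or replicate 2 or 3 of glial cells. The P8 SGN libraries carried 490.4 to 993 TPM of summed glial markers, against 5693 to 8077 TPM in glial cells, and all 6 markers were detected in each.

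Between HCs and glial cells 2 members passed, both lower in HCs, *Egr3* (-6.38 ± 0.52, adjusted p = 1.29e-08) and *Fosb* (-2.24 ± 0.39, adjusted p = 1.02e-04), against 24.4% of all genes called and 8.18% called lower in HCs. *Fos* (-1.91 ± 0.39) and *Jund* (-1.53 ± 0.44) passed on p but not on fold. For 4 members the direction depended on the scale. *Egr1* and *Jun* were higher in every HC library than in any glial library in TPM, as were 57.0% of all genes, and yet were at -0.82 ± 0.47 and -0.76 ± 0.35 on the TMM scale. *Ier2* and *Jund* had the higher mean in HCs in TPM, with overlapping libraries, and were at -0.70 ± 0.69 and -1.53 ± 0.44 on the TMM scale. *Fosb* and *Egr3* were above HCs in every glial library in TPM, which held for 6.45% of all genes.

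Of the 27 other early response genes tested, 15 were lower in SGNs than in glial cells, 1 was higher and 11 did not pass, against 10.4% of all genes called lower and 14.3% called higher. *Nr4a1* (-5.42 ± 0.38) and *Egr2* (-5.40 ± 0.31), a regulator of myelination, had the largest differences and stood at 497 ± 116 and 394 ± 88.5 TPM in glial cells. They were followed by *Nr4a2* (-4.87), *Klf4* (-4.83), *Klf2* (-3.73), *Socs3* (-3.38), *Klf6* (-3.18), *Atf3* (-3.12), *Nr4a3* (-3.003), *Per1* (-2.96), *Ccn1* (-2.82), *Fosl2* (-2.76), *Zfp36* (-2.68), *Gadd45b* (-2.56) and *Ier5* (-2.49). *Fosl1*, a Fos family gene, was the one higher in SGNs (4.05), from glial libraries with 1 count at most. At P8 alone 11 of the 27 were lower in SGNs (7.53% of all genes) and none was higher. Against HCs 4 of the 27 passed (26.8% of all genes), with *Socs3* (-2.77) and *Btg2* (-2.75) lower in SGNs and *Ier3* (4.32) and *Myc* (3.07) higher. In HCs against glial cells 11 were lower (8.18% of all genes) and 1, *Fosl1*, was higher. Of the 8 heat shock genes none was lower in SGNs than in glial cells, *Hsp90aa1* was higher (2.08 ± 0.19), and *Hspa8*, the most abundant, was at 1.42 ± 0.14. Their sum was 301 to 468 TPM in glial cells and 2338 to 2469 TPM in HCs.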

How the data were processed

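RNA from 21 pools of tdTomato-positive cells was amplified and sequenced without molecular identifiers. Per the labels, the authors aligned reads to mm10 with STAR 2.4.0i and counted them per gene with featureCounts; the deposited values are raw counts. Of counts from 1 to 20, 64.3 to 75.0% per library were even, so both mates of a pair may have been counted and a count of 3 may stand for fewer fragments. The strand setting is not given in the sources used here. TPM was computed from the counts and the gene lengths in the deposited table.

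Differences were tested with the tools and thresholds the study names, TMM scaling, voom and limma 3.58.1 with Benjamini-Hochberg adjustment, over genes with CPM above 1 in all replicates of at least 1 group (15113 genes in the SGN libraries, 17531 in all 21; the study gives other totals). The study compared groups pair by pair, whereas SGNs enter the main cell type contrasts here as the mean of 5 ages. Ages were compared over 15 SGN libraries (adjusted p under 0.05, over 2-fold) and cell types over 21 libraries (adjusted p under 0.01, over 4-fold). The fits were tested on simulated data. Alternatives were edgeR 4.0.16, DESeq2 1.42.0, other scalings and filters, sample quality weights, a replicate block and leaving out libraries. The 10 members and all gene lists were chosen with earlier results of these data known. From a list, the 2 genes with the highest mean TPM and those that passed a test were named, and for each member the 3 genes with the highest Pearson's r were found, of which some are named. Markers of other cell types serve as description. Some genes of these lists are not reported here.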

Additional observations from a re-analysis of the deposited data

How the results depend on the processing

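Over the 30 member results that were called, 636 values were recomputed. Of these, 563 kept the call and 73 lost it, with no change of sign. In 12 of the 30 results the call was kept in every alternative and with any library of the groups compared left out. Libraries outside a comparison, which share its fit, were not left out in this count. The counts of members called within 1.5 times of those reported are not listed. By edgeR's quasi-likelihood test 0 members were called from P1 to P8, 1 between SGNs and HCs (*Egr1*), 4 between P8 SGNs and glial cells and 1 between HCs and glial cells (*Egr3*). That test called 649 of 15113 genes from P1 to P8. Of 17531 genes it called 4023, 2889 and 3319 in the other comparisons, in the same order. DESeq2 and sample quality weights each called 1 from P14 to P30 (*Egr3*), among 97 and 110 of 15113 genes. Sample quality weights called 7 between SGNs and HCs, among 5519 of 17531 genes. Without a low-count filter 3 were called from E15.5 to P30, among 5517 of 34901 genes. Scaling by library size only left 1 between HCs and glial cells, among 4593 of 17531 genes. It moved the median of all genes to -0.54 for SGNs against HCs, to -0.49 from E15.5 to P30 and to 0.63 for HCs against glial cells, where the TMM fit had 0.02, -0.01 and 0.14. With only the libraries compared, 4 were called between P8 SGNs and glial cells, among 2494 of 13760 genes. Without the first replicates of P1, P8, P14 and P30, left out after their high member values were seen, the counts were 7 over the ages, 4 from E15.5 to P1, 0 from P1 to P8 and 7 between SGNs and HCs. All genes called were 4495, 1030 and 520 of 15829 and 4670 of 17941, in the same order. The causes of these shifts were not tested, beyond the fewer libraries in the last of them.

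The replicate numbers are labels, and nothing states that they pair the samples. On the voom scale the 3 correlations of same-numbered deviations exceeded 0.1 together in none of the pairs of groups compared, and did so between P8 and P30 (0.378, 0.172 and 0.146). Between P1, P8, P14 and P30, however, replicate 1 alone had correlations of 0.249 to 0.378 over all genes. Replicate 2 had 0.062 to 0.22 there and replicate 3 had 0.015 to 0.161. With E15.5, replicate 1 had -0.068 to -0.056. What the replicate 1 libraries share was not tested. With a replicate block added to the model, limma called 9 members over the ages (all but *Egr1*, among 6205 of 15113 genes, against 5717 without it). It called 1 from E15.5 to P1 (*Jund*, among 1448 of 15113 genes) and 2 between SGNs and HCs (*Egr1* and *Npas4*, among 4557 of 17531 genes). From P14 to P30, 8 members had an unadjusted p under 0.05, with 0 called, and how many of all genes did so was not computed.

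Leaving out 1 library at a time gave 2 to 3 members over the ages, 0 to 1 from E15.5 to P1, 1 from P1 to P8, 0 from P8 to P14 and from P14 to P30, and 2 to 7 from E15.5 to P30. It gave 3 to 6 between SGNs and HCs, 5 to 9 between SGNs and glial cells, 4 to 8 between P8 SGNs and glial cells and 2 between HCs and glial cells. Depth limits *Npas4* in HCs and glial cells and *Egr3* at P30, with counts at or near 0. The 3 libraries a group limit the precision of every other value.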

Other observations

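Of 12 regulators that act on immediate early promoters, among them *Srf* and the Elk, Creb and Mef2 genes, 4 were lower in SGNs than in glial cells (10.4% of all genes), *Elk3* (-3.08), *Srf* (-2.82), *Elk4* (-2.58) and *Atf1* (-2.30), and none was higher. At P8 *Srf* (-3.05), *Elk4* (-2.37) and *Atf1* (-2.03) were lower and *Mef2a* (2.41) was higher in SGNs (20.9% of all genes called). Against HCs *Mef2c* alone was called, higher in SGNs (3.58, where 26.8% of all genes were called). It was also the one called between HCs and glial cells, lower in HCs (-2.85, 24.4% of all genes called). Over SGN development *Mef2c* fell from E15.5 to P1 (-1.21, 8.26% of all genes called) and *Crem* from E15.5 to P30 (-1.21, 34.6% of all genes called).

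In a list of 8 other partners of AP-1 proteins 6 were tested. Of these, 3 were higher in SGNs than in HCs (10.5% of all genes), among them *Maf* (6.47) and *Jdp2* (4.15), and none was lower. Against glial cells *Atf7* was lower in SGNs (-2.05) and 1 gene was higher (24.7% of all genes called). At P8 alone 1 was higher in SGNs (20.9% of all genes called). In HCs 2 were lower than in glial cells (8.18% of all genes). From P1 to P8 1 fell (3.15% of all genes). From E15.5 to P30 *Jdp2* rose (1.26) and 1 gene fell, where 34.6% of all genes were called. *Atf4* passed no test.

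*Egr2* was the one early response gene on its list to change between neighbouring SGN ages, rising by 3.15 ± 0.73 (log2 ± standard error, adjusted p = 0.0102, limma-voom) from P1 to P8, from 7.25 ± 1.07 to 52.9 ± 28.0 TPM (SD, n = 3), while 4 of 6 glial markers rose and their sum went from between 34.2 and 121.6 TPM at P1 to between 490.4 and 993 TPM at P8.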
